A study of Mus musculus with 18 samples.

Results

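The 6 arrays with the most and the 6 with the least transcript of the dopamine transporter gene Slc6a3 were compared, out of 18 arrays of mouse hypothalamus. The arrays were chosen by a measured value, the log2 expression of Slc6a3, and not by genotype. The 18 arrays were put in order of the only probeset that reads Slc6a3 alone, and the 6 highest and 6 lowest formed the high and the low end. The other 6 arrays lay between them and entered no fit between the ends. Hypothalami had been dissected under a microscope and frozen, and 100 ng of total RNA was labelled for each array. The mice were wild type or mutant for Wfs1, a gene for a membrane protein of the endoplasmic reticulum, on a background that the labels call 129SV and the series text 129S6. The sources used here give neither age, sex nor the kind of mutation. Arrays may or may not stand for separate animals, so p-values reflect the spread among arrays alone, and some of that may be technical.

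Each array carries a pair of genotype labels that contradict each other on many arrays. Arrays are named here by the ending of the title, then by the genotype field, then by a number that only tells arrays apart, as in ko/WT 4. The labels contradict each other on every array named ko/WT or wt/KO, and which label is right is not known here. The high end held 3 arrays with the ending ko and 3 with wt, or 4 KO and 2 WT by the field. The low end held 2 with the ending ko and 4 with wt, and 2 KO and 4 WT by the field. The share of either label did not pass a test between the ends (two-sided Fisher's exact p = 1 for the ending and 0.567 for the field, both 1 after Benjamini-Hochberg adjustment). Wfs1 itself ran from 7.86 to 8.72 at the high end and from 7.89 to 8.68 at the low end, with a difference of -0.065 (SE 0.164, limma adjusted p = 0.850). Its ranges overlapped almost completely.

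Dopamine neurons make dopamine from tyrosine in a pair of steps, by tyrosine hydroxylase (Th) and then aromatic amino acid decarboxylase (Ddc). The vesicular monoamine transporter Slc18a2 loads it into vesicles, and the dopamine transporter Slc6a3 takes it back up from outside the cell. Hypothalamic dopamine neurons include those of the arcuate nucleus that restrain prolactin release, and many of them carry little Slc6a3. The neurons with abundant Slc6a3 are those of the substantia nigra and ventral tegmental area in the ventral midbrain, which borders the posterior hypothalamus.

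The 250 bases before the annotated start sites of the dopamine transporter gene and of the other dopamine neuron markers are shown because these genes moved together between arrays. They come from RefSeq, build GRCm38.p6, and are written 5′ to 3′ on the strand of the gene. Slc6a3 lies on the plus strand (chr13:73536497-73536746), Th on the minus strand (chr7:142899996-142900245), Ddc on the minus strand (chr11:11898145-11898394) and Slc18a2 on the plus strand (chr19:59260628-59260877). Ddc has another annotated start site, which is not printed, and the 250 bases before it held neither element named below. Capitals mark a match to the cyclic AMP response element TGACGTCA in Th and to AAAGGTCA, the element bound by the orphan receptor Nr4a2, in Ddc, where it lies on the opposite strand and so reads TGACCTTT.
Slc6a3: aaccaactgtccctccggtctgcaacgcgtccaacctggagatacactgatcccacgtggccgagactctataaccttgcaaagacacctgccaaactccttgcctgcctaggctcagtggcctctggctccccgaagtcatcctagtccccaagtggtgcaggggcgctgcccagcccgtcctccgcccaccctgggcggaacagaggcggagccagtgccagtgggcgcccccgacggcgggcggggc
Th: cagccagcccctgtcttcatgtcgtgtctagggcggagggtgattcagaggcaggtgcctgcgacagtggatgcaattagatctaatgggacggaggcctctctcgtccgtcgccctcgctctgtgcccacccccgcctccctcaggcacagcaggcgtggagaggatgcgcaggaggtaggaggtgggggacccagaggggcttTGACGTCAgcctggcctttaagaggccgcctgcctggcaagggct
Ddc: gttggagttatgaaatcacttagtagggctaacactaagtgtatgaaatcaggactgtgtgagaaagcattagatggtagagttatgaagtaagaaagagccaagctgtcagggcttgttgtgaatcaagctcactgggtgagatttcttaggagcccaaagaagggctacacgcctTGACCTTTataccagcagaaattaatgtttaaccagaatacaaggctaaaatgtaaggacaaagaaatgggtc
Slc18a2: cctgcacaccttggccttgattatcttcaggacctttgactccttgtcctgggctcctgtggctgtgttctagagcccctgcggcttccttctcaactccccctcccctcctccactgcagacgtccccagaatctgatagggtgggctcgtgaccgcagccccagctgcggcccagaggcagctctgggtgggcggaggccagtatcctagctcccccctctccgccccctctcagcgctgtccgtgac

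The match in Th began 45 bases before the start site and that in Ddc 73 bases before it. Both strands were searched. Of 32851 annotated mouse promoters of this length, 508 (1.55%) held the cyclic AMP response element and 439 (1.34%) the Nr4a2 element. Of Slc6a3 and the 12 genes called below, 11 of 13 had a promoter in the table, 14 promoters in all, and only Th held the first element and only Ddc the second. A match is a description of letters and not a measured binding site.

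Slc6a3 fell along the 18 arrays from 10.75 to 9.06 log2 units. The high end ran from wt/KO 4 at 10.75, ko/WT 4 at 10.72, ko/KO 5 at 10.66, wt/KO 2 at 10.65 and wt/WT 4 at 10.58 down to ko/KO 1 at 10.56. The arrays between were ko/WT 1 at 10.56, ko/KO 4 at 10.39, ko/KO 3 at 10.32, wt/KO 1 at 10.26, ko/WT 5 at 10.05 and ko/WT 3 at 9.98. The low end held wt/KO 3 at 9.69, ko/WT 2 at 9.50, wt/WT 3 at 9.48, wt/WT 2 at 9.35, wt/WT 1 at 9.19 and ko/KO 2 at 9.06. The high edge is therefore a tie, ko/KO 1 inside and ko/WT 1 outside, settled by column order. At the low edge wt/KO 3 lies inside at 9.69 and ko/WT 3 outside at 9.98. The means were 10.65 ± 0.075 (SD, n = 6) at the high end, 10.26 ± 0.22 (SD, n = 6) between and 9.38 ± 0.23 (SD, n = 6) at the low end. The high and low ends thus differ by 1.28 on the log2 scale, or 2.42-fold, which is the choice of arrays and gets no test. The arrays between lay nearer the high end, 0.88 above the low end.

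**Figure D1:**
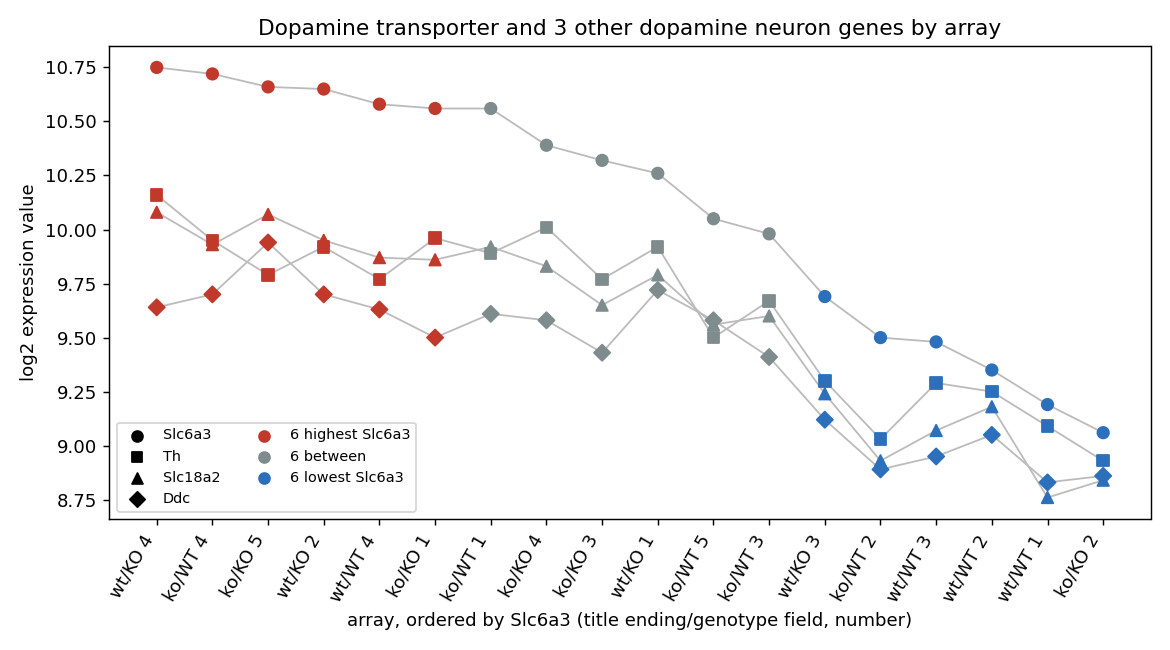
Deposited log2 expression values (y axis) of Slc6a3, Th, Slc18a2 and Ddc on each of 18 arrays, in order of Slc6a3 (x axis), with colours for the 6 highest, the 6 between and the 6 lowest arrays. The lowest Th value of the high end is 9.77 and the highest of the low end 9.30, and Slc18a2 and Ddc are likewise separate.

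Th, the rate-limiting enzyme of dopamine synthesis, ran from 9.77 to 10.16 at the high end (median 9.94) and from 8.93 to 9.30 at the low end (median 9.17). Every high array was above every low array, and the difference was 0.78 (SE 0.081), or 1.71-fold (limma, Benjamini-Hochberg adjusted p = 2.24e-04). Ddc, which makes dopamine from L-DOPA and also serves serotonin synthesis, lay between 9.50 and 9.94 at the high end (median 9.67) and between 8.83 and 9.12 at the low end (median 8.92). It differed by 0.74 (SE 0.074), or 1.66-fold (limma adjusted p = 2.04e-04), with no overlap. Slc18a2, which fills vesicles in all monoamine neurons, ran from 9.86 to 10.08 at the high end (median 9.94) and from 8.76 to 9.24 at the low end (median 9.0). The difference was 0.96 (SE 0.082), or 1.94-fold (limma adjusted p = 3.0e-05), again with no overlap. In bulk tissue, fewer dopamine neurons and less of these transcripts in each neuron cannot be told apart.

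The enzymes that make and recycle tetrahydrobiopterin, the cofactor of Th, differed in sign and none was called. Gch1, the first enzyme of that pathway, ran from 6.12 to 6.46 at the high end (median 6.20) and from 5.56 to 6.07 at the low end (median 5.89), a difference of 0.41 (SE 0.086, limma adjusted p = 0.116). Its ends did not overlap, yet it did not pass the threshold. Pts, the next enzyme, differed by -0.033 (SE 0.068, adjusted p = 0.812), Spr, the last, by -0.17 (SE 0.067, adjusted p = 0.229), and Qdpr, which recycles the cofactor, by 0 (SE 0.081). The Pts value rested on single arrays and was -0.083 without wt/WT 1. The monoamine oxidases Maoa and Maob, which break dopamine down, differed by 0.17 (SE 0.078, adjusted p = 0.271) and 0.19 (SE 0.086, adjusted p = 0.259). Without ko/KO 5 these differences were 0.11 and 0.13.

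Markers of noradrenaline neurons did not pass the test. The noradrenaline transporter Slc6a2 differed by -0.17 (SE 0.081, limma adjusted p = 0.289). Dbh, which turns dopamine into noradrenaline, differed by 0.017 (SE 0.080, adjusted p = 0.926) and was dim, at most 5.44, where the lower quartile of an array was 5.81 or above. Its direction turned when single arrays were left out. Of the 11 measured genes of dopamine synthesis and transport other than Slc6a3, 3 were called higher, 7 had a higher and 3 a lower mean at the high end, and the median difference was 0.17, or 0.098 with the tied array ko/WT 1 in place of ko/KO 1.

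Among the receptors and subtype markers of midbrain dopamine neurons, some were called and others were not. Chrna6, a nicotinic acetylcholine receptor subunit that is concentrated in midbrain dopamine neurons, ran from 7.84 to 8.22 at the high end (median 8.01) and from 6.73 to 7.23 at the low end (median 7.01). Its difference of 1.03 (SE 0.084), or 2.04-fold, was the largest among the genes called (limma adjusted p = 2.8e-05), and its ends did not overlap. Chrna5, another subunit of such receptors that was in neither dopamine list, lay between 6.38 and 6.93 at the high end (median 6.67) and between 5.66 and 6.03 at the low end (median 5.89), a difference of 0.80 (SE 0.088), or 1.74-fold (adjusted p = 4.13e-04). Its ends did not overlap, and the arrays between spread over both ranges, as the plot of values by end shows. Chrna5 was among the dimmest 40% of genes. On the low arrays ko/WT 2 (5.66) and ko/KO 2 (5.78) it was under 5.81, the smallest lower quartile of any array. Chrnb3, the subunit often paired with Chrna6, differed by 0.33 (SE 0.108, adjusted p = 0.185), with overlapping ends.

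Slc10a4, a protein of synaptic vesicles in monoamine and cholinergic neurons, ran from 7.66 to 8.06 at the high end (median 7.98) and from 6.59 to 7.29 at the low end (median 7.08). The difference was 0.86 (SE 0.105), or 1.82-fold (limma adjusted p = 0.0013). Aldh1a1, a retinaldehyde dehydrogenase that marks ventral dopamine neurons of the substantia nigra, ran from 11.01 to 11.32 at the high end (median 11.16) and from 10.03 to 10.78 at the low end (median 10.36), a difference of 0.79 (SE 0.104), or 1.73-fold (adjusted p = 0.00316). Neither gene overlapped between the ends. Anxa1, a calcium-dependent membrane-binding protein that marks a subset of those neurons, ran from 6.95 to 7.42 at the high end (median 7.09) and from 6.30 to 6.74 at the low end (median 6.51). It differed by 0.63 (SE 0.101), or 1.55-fold (adjusted p = 0.0213), with no overlap.

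Ret, the signalling receptor for glial cell line-derived neurotrophic factor, ran from 9.28 to 9.53 at the high end (median 9.44) and from 8.56 to 9.05 at the low end (median 8.91). The difference was 0.54 (SE 0.077), or 1.45-fold (limma adjusted p = 0.00668), and the lowest value was that of ko/KO 2. Tacr3, the receptor for neurokinin B, ran from 8.23 to 8.59 at the high end (median 8.37) and from 7.74 to 7.99 at the low end (median 7.88), a difference of 0.50 (SE 0.071), or 1.41-fold (adjusted p = 0.00668). Ttc6, a tetratricopeptide repeat protein, lay between 6.33 and 6.57 at the high end (median 6.47) and between 6.01 and 6.14 at the low end (median 6.10), a difference of 0.37 (SE 0.056), or 1.29-fold (adjusted p = 0.0133). All 3 genes were separate between the ends. Tacr3 and Ttc6 passed the threshold with smaller differences than the 10 largest and were named after their values were seen.

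Other members of the midbrain list had smaller differences. Drd2, the dopamine receptor that also serves as autoreceptor on dopamine neurons, ran from 8.85 to 8.97 at the high end (median 8.95) and from 8.48 to 8.79 at the low end (median 8.63). It differed by 0.29 (SE 0.061, limma adjusted p = 0.116) without overlap. Satb1, a chromatin organiser, at 0.26 (SE 0.060, adjusted p = 0.143) and the secreted neuron-derived factor Ndnf at 0.31 (SE 0.083, adjusted p = 0.164) were also separate between the ends and did not pass the threshold. Sncg, gamma-synuclein, differed by 0.25 (SE 0.088, adjusted p = 0.200), the syndecan Sdc2 by 0.23 (SE 0.091, adjusted p = 0.222) and the guanylate cyclase receptor Gucy2c by 0.13 (adjusted p = 0.315). The neurotensin receptor Ntsr1 and the potassium channel subunit Kcnj6 each differed by 0.11, and Ntsr1 by 0.18 without wt/WT 4 and 0.067 without ko/KO 1. Calb1, calbindin, a marker of dorsal dopamine neurons, differed by 0.005 (SE 0.074, adjusted p = 0.977), and its direction turned under several alternatives, quantile normalization among them.

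The transcription factors that specify and maintain midbrain dopamine neurons did not pass the test. Nr4a2, needed for the dopamine neuron fate, ran from 8.22 to 8.99 at the high end (median 8.40) and from 8.07 to 8.79 at the low end (median 8.44). Its difference was 0.087 (SE 0.137, limma adjusted p = 0.752), with overlapping ends, and it turned to -0.014 without ko/KO 1. Pitx3, which marks nearly all midbrain dopamine neurons, ran from 7.17 to 7.55 at the high end (median 7.30) and from 7.19 to 7.65 at the low end (median 7.42), a difference of -0.080 (SE 0.085, adjusted p = 0.62). The engrailed genes En1 and En2 differed by 0.16 (SE 0.093, adjusted p = 0.373) and 0.30 (SE 0.087, adjusted p = 0.171). Lmx1b differed by -0.14 (adjusted p = 0.354), Otx2 by -0.12 (adjusted p = 0.605), Sox6 by 0.082 (adjusted p = 0.407), Foxa2 by 0.090 (adjusted p = 0.627) and Foxa1 by -0.013 (adjusted p = 0.951), or 0.0049 after quantile normalization. The Foxa2 difference was 0.013 without wt/KO 4, that of Otx2 was -0.033 without wt/KO 2, that of Lmx1b was -0.087 without ko/KO 5 and that of Sox6 was 0.052 without ko/KO 2. Over all genes the median standard error was 0.074.

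**Figure D2:**
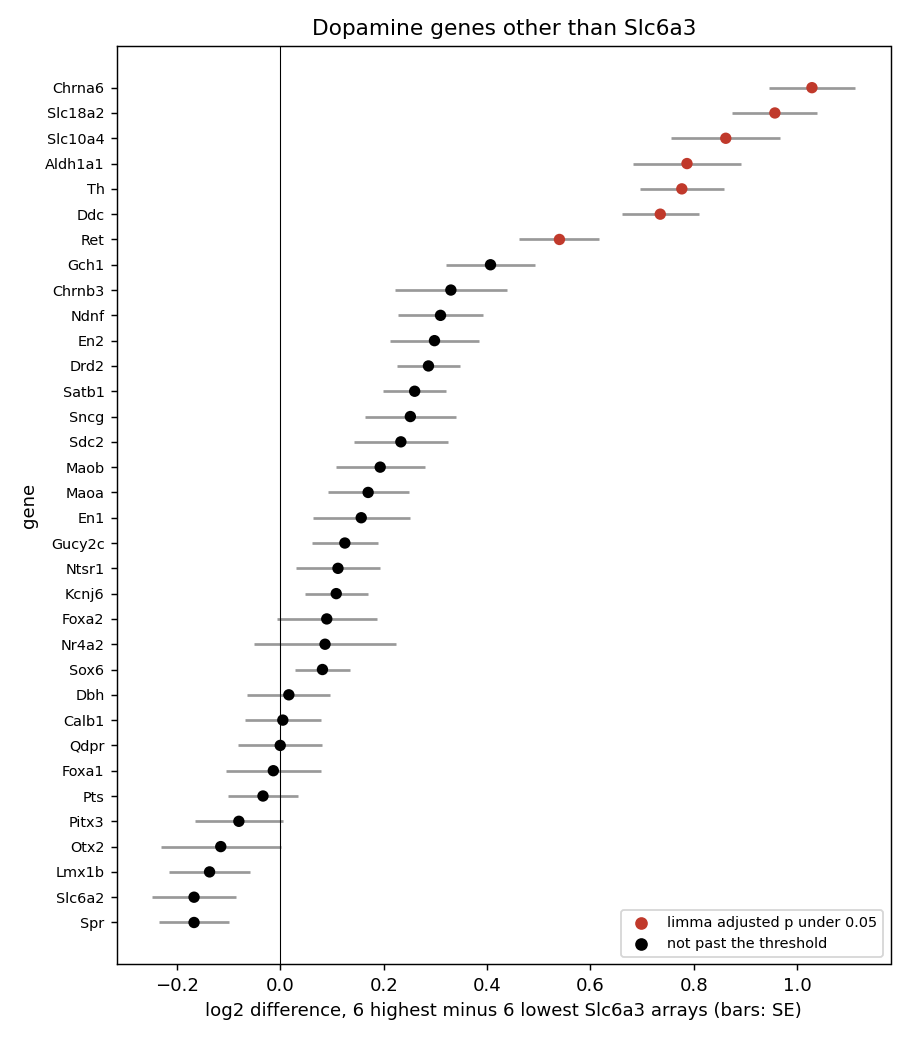
Log2 difference (x axis, mean of the 6 highest minus mean of the 6 lowest Slc6a3 arrays, bars SE) of 34 dopamine genes other than Slc6a3 (y axis), red where the limma adjusted p is under 0.05. The 7 red genes run from 0.54 for Ret to 1.03 for Chrna6, and the others from -0.17 to 0.41.

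Of the 23 measured genes of midbrain dopamine neuron identity, 4 were called higher, 19 had a higher and 4 a lower mean at the high end, and the median difference was 0.16. Over both dopamine lists, 34 of 36 genes were measured. Of these, 7 were called higher and 0 lower, 26 had a higher mean, 7 a lower one and 1 the same, 18 had an unadjusted p under 0.05, and the median difference was 0.16. Over all genes 44.7% had a higher mean at the high end and the median difference was -0.017. Of all 19936 genes, 3562 had an unadjusted p under 0.05 in limma. The mean level of the 34 genes was 8.31 to 8.41 on the high arrays, 8.23 to 8.33 on the arrays between and 8.02 to 8.21 on the low arrays. Without the 3 arrays of smallest overall spread described below, 5 of the 34 were called, 25 had a higher and 9 a lower mean, and the median was 0.15.

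Across all 19936 genes other than Slc6a3, limma called 12 genes higher at the high end (0.0602%) and 0 lower (0%), at a Benjamini-Hochberg adjusted p under 0.05. At an unadjusted p under 0.05 there were 3562 genes, 1925 higher and 1637 lower, where about 997 would be expected if no gene differed. That count depended on a few arrays. It was 2209 with the tied array ko/WT 1 in place of ko/KO 1. Without the 3 arrays of smallest overall spread it was 1467, with 578 higher and 889 lower. All 6 high arrays were above all 6 low arrays for 124 genes (0.622%) and below them for 62 (0.311%). Of the 12 called genes, 11 were separate in this way, and 7 were in the dopamine lists, which had been written with earlier results of these data known. The 5 outside them were Chrna5, Tacr3, Ttc6, Anxa1 and Ogn. Both dopamine lists held 11 of the 124 separate genes and none of the 62.

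Ogn, a small proteoglycan of connective tissue and meninges, was the one called gene whose ends overlapped. It ran from 5.57 to 6.80 at the high end (median 6.39) and from 5.41 to 5.57 at the low end (median 5.48), a difference of 0.86 (SE 0.145), or 1.81-fold (limma adjusted p = 0.0353). On the high array wt/KO 2 it was as low as on the highest low array, and the highest value of all, 6.92, was on ko/KO 4 between the ends. Ogn on wt/KO 2 and on all 6 low arrays was under 5.81, the smallest lower quartile of any array. Of the 10 measured meningeal and fibroblast markers, 9 had a higher mean at the high end with a median difference of 0.26. The mean level of these markers was 7.21 to 7.63 on the high arrays and 7.08 to 7.26 on the low arrays. Dcn, decorin, was separate between the ends at 0.66 (SE 0.134, adjusted p = 0.111) and passed without the dimmest 40% of genes (adjusted p = 0.025). The part of these markers in the differences of the dopamine genes was not tested.

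Most calls did not rest on 1 array. Of the 12 genes, 9 were called in every one of the 12 fits that left out 1 array, the exceptions being Ogn, Anxa1 and Ttc6. Ttc6 was lost without ko/WT 4 or without ko/KO 2 and Anxa1 without any of ko/KO 5, wt/KO 2, ko/KO 1, ko/WT 2, wt/WT 1 and ko/KO 2. Leaving out wt/KO 3, the low array nearest the middle, gave 21 genes higher and 10 lower. With the genotype field as covariate, limma called 9 genes, and Anxa1, Ogn and Ttc6 were lost. With the title ending as covariate it called 13 genes, and Ogn was lost. With the tied array ko/WT 1 in place of ko/KO 1, 8 of the 12 remained, and Anxa1, Chrna5, Ogn and Ttc6 were lost (adjusted p = 0.0742 for Chrna5). With 9 arrays against 9, limma called 0 genes (1318 at an unadjusted p under 0.05), and Chrna6, Slc18a2, Th and Slc10a4 had an adjusted p of 0.0581.

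The 6 arrays between the ends, which the fit did not use, were examined for the 12 called genes by the correlation with Slc6a3. Ret correlated at Pearson's r = 0.909 (exact permutation p = 0.0153) and Spearman's rho = 0.886 (exact permutation p = 0.0333), and at r = 0.869 without the 2 arrays farthest from the median of Slc6a3. Slc18a2 correlated at r = 0.892 (exact permutation p = 0.0181) and rho = 0.886 (exact permutation p = 0.0333), and at r = 0.790 without those 2 arrays. Th followed at r = 0.754 (exact permutation p = 0.0917) and Slc10a4 at r = 0.721 (exact permutation p = 0.103). The others ranged from 0.599 for Chrna6 down to 0.046 for Chrna5, with Ddc at 0.378. Without the 2 farthest arrays r turned to -0.589 for Aldh1a1, -0.174 for Ddc and -0.111 for Chrna5, while it was 0.902 for Th, 0.836 for Slc10a4 and 0.879 for Chrna6. After Benjamini-Hochberg adjustment over the 12 genes the exact permutation p ran from 0.108 to 0.919, so none passed, and the Slc6a3 range of these arrays was narrow.

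**Figure D3:**
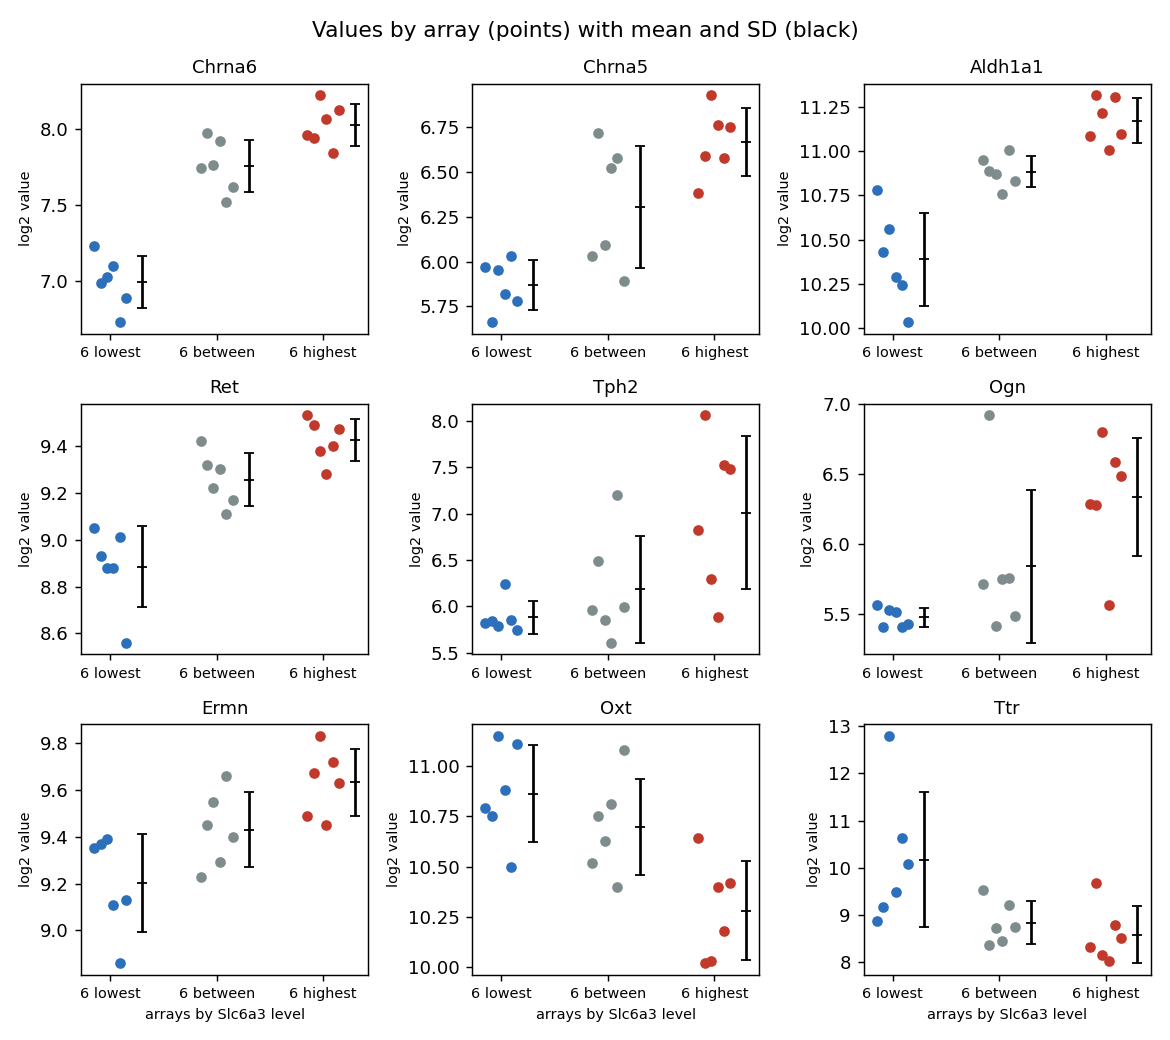
Log2 values (y axis, a scale of its own in each panel) of 9 genes on the 6 lowest, the 6 between and the 6 highest Slc6a3 arrays (x axis), points for arrays and black bars for mean and SD. Chrna6, Chrna5, Aldh1a1, Ret and Ermn are separate between the ends, while Tph2, Ogn, Oxt and Ttr overlap.

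Markers of neighbouring neurons were set beside the dopamine genes. Tph2, the enzyme of serotonin synthesis in brain, ran from 5.89 to 8.06 at the high end (median 7.15) and from 5.75 to 6.24 at the low end (median 5.83). The difference of 1.13 (SE 0.275, limma adjusted p = 0.146) came with a wide spread among the high arrays, and it did not pass the threshold. The serotonin transporter Slc6a4 differed by 0.37 (adjusted p = 0.251), and by 0.23 without ko/WT 4. Of the 5 measured serotonin markers 3 had a higher mean, with a median of 0.13. Of 11 markers of other ventral midbrain and brainstem neurons, 2 were higher and 8 lower, with a median of -0.082. Gata3, a transcription factor of brainstem GABA neurons, differed by 0.37 (SE 0.116, adjusted p = 0.177) and the noradrenergic factor Phox2a by -0.27 (SE 0.089, adjusted p = 0.183).

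Of the paraventricular and supraoptic genes, 4 of the 8 measured were higher and 4 lower (median -0.0083), and the median turned to 0.0058 without the 3 arrays of smallest spread and to 0.012 without ko/WT 4 and wt/WT 3. Oxt, oxytocin of the paraventricular and supraoptic nuclei, ran from 10.02 to 10.64 at the high end (median 10.29) and from 10.50 to 11.15 at the low end (median 10.84), a difference of -0.58 (SE 0.120, limma adjusted p = 0.113). Avp, vasopressin of the same nuclei, differed by -0.57 (SE 0.217, adjusted p = 0.214). All 7 measured genes of the lateral hypothalamus were lower (median -0.14), among them Hcrt, the orexin precursor, at -0.39 (SE 0.108, adjusted p = 0.167) and Qrfp at -0.13. This became 6 of 7 (median -0.088) when ko/WT 4, low in Xist, and wt/WT 3, high in Ttr, were left out. Oxt, Avp and Hcrt, which mark hypothalamic neurons, were at 9.11 or above on all 12 arrays of the ends, so the labelled tissue's defining markers were present.

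Of 16 arcuate and tuberal genes 5 were higher and 11 lower (median -0.060), with Tac2, the neurokinin B precursor, at -0.34 and galanin, Gal, at -0.25. Of 13 posterior hypothalamic and mammillary genes 8 were higher and 5 lower (median 0.020), with the homeobox genes Barhl2 at -0.20 and Barhl1 at -0.15. Without the 3 arrays of smallest spread this became 5 higher and 7 lower (median -0.0050). Suprachiasmatic and preoptic genes were higher for 3 and lower for 8 of 11 (median -0.035), with neuromedin S, Nms, at -0.21 and the homeobox gene Lhx1 at 0.13. None of these genes passed the limma threshold.

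Of the thalamic, striatal, cortical and GABA genes none was called by limma. Thalamic markers were higher for 6 and lower for 10 of 16 (median -0.045), with Tnnt1 at -0.18 and Gbx2 at -0.12, and all 16 were lower (median -0.12) without the 3 arrays of smallest spread. Striatal markers were higher for 4 and lower for 5 of 9 (median -0.013, or 0.0060 without ko/WT 4 and wt/WT 3), with proenkephalin, Penk, at 0.19 and the dopamine receptor Drd1 at -0.18. Cortical and hippocampal markers were higher for 4 and lower for 4 of 8 (median -0.040), with the vesicular glutamate transporter Slc17a7 at -0.38 and Neurod2 at -0.12, the latter -0.069 without wt/WT 2. Of 5 genes of GABA synthesis and transport 3 were higher (median 0.093), with the synthesising enzymes Gad1 and Gad2 at 0.13 each, and 2 of 5 (median -0.0067) without the 3 arrays of smallest spread.

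Means of oligodendrocyte, astrocyte, vascular and ventricular markers lay mostly on the same side within each list. Their part in the dopamine differences was not tested. None of these genes was called over all genes. Without the dimmest 40% of genes Ermn and Rgs5 passed higher (limma adjusted p = 0.041 for each) and Foxj1 lower (adjusted p = 0.047). Means at the high end were higher for all 16 measured genes of oligodendrocytes and myelin (median 0.12), 10 of 16 (median 0.056) without the 3 arrays of smallest spread. Ermn, a cytoskeletal protein of myelinating cells, ran from 9.45 to 9.83 at the high end and from 8.86 to 9.39 at the low end, a difference of 0.43 (SE 0.093, limma adjusted p = 0.126) without overlap. Ugt8a, which makes the myelin lipid galactocerebroside, differed by 0.42 (adjusted p = 0.155). The mean level of the 16 genes was 9.59 to 9.85 on the high and 9.37 to 9.74 on the low arrays. Of 13 astrocyte genes 11 were higher (median 0.11), with the connexin Gjb6 at 0.23 and the water channel Aqp4 at 0.25, and 9 of 13 (median 0.032) without those 3 arrays. After quantile normalization 15 of 16 oligodendrocyte genes were higher (median 0.085) and 10 of 13 astrocyte genes (median 0.033).

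Endothelial and mural markers were higher for 8 of 11 (median 0.18), with mean levels of 8.54 to 8.68 on the high arrays and 8.37 to 8.56 on the low arrays, and a median of 0.12 without the 3 arrays of smallest spread. Rgs5, of pericytes, at 0.29 (limma adjusted p = 0.116) and the endothelial transporter Slco1a4 at 0.22 (adjusted p = 0.161) were separate between the ends. Choroid plexus markers were lower for 12 of 13 (median -0.15), with Aqp1 at -0.28, and for 10 of 13 (median -0.088) without ko/WT 4 and wt/WT 3. Ttr, transthyretin, the main choroid plexus product, ran from 8.01 to 9.68 at the high end (median 8.41) and from 8.87 to 12.80 at the low end (median 9.78), a difference of -1.60 (SE 0.504, adjusted p = 0.176). Ependymal and tanycyte markers were lower for 8 of 11 (median -0.15). Among them Foxj1, the master factor of motile cilia, was separate between the ends at -0.28 (SE 0.061, adjusted p = 0.126), and Rarres2, chemerin, differed by -0.23.

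Microglial genes were higher for 6 and lower for 5 of 11 (median 0.025, or -0.017 without the 3 arrays of smallest spread), with Tyrobp at -0.21 and Csf1r at 0.060, the latter 0.030 without ko/KO 1 or without wt/WT 2. Pituitary genes were lower for 8 of 9 (median -0.098), with growth hormone, Gh, at -0.25 and prolactin, Prl, at -0.14, the latter -0.072 without ko/KO 2, and lower for 6 of 9 after quantile normalization. Immediate early genes were higher for 6 and lower for 6 of 12 (median 0.023, or -0.017 with the tied array ko/WT 1 and -0.011 without ko/WT 4 and wt/WT 3), with Junb at -0.24 and Btg2 at 0.28, the latter 0.18 without ko/WT 2. Of 4 blood genes 2 were higher and 2 lower (median -0.019), with S100a8 at -0.28 and Alas2 at 0.39, which was 0.071 without wt/KO 2. Of 4 sex-linked genes 1 was higher and 3 lower (median -0.039). The medians of these last lists turned after quantile normalization, to 0.025 for the blood and 0.042 for sex-linked genes. Xist, the transcript of the inactive X chromosome, was 5.93 on the high array ko/WT 4 and 10.31 or more on every other array of the ends. Its difference of -0.56 turned to 0.22 without ko/WT 4. The Y-linked gene Kdm5d differed by -0.073, or 0.0063 after quantile normalization. It was 5.42 on ko/WT 4, within its range on the other arrays of the ends. Kdm5d was dim, at most 5.63 on any array, so it does not settle the sex of that array.

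**Figure D4:**
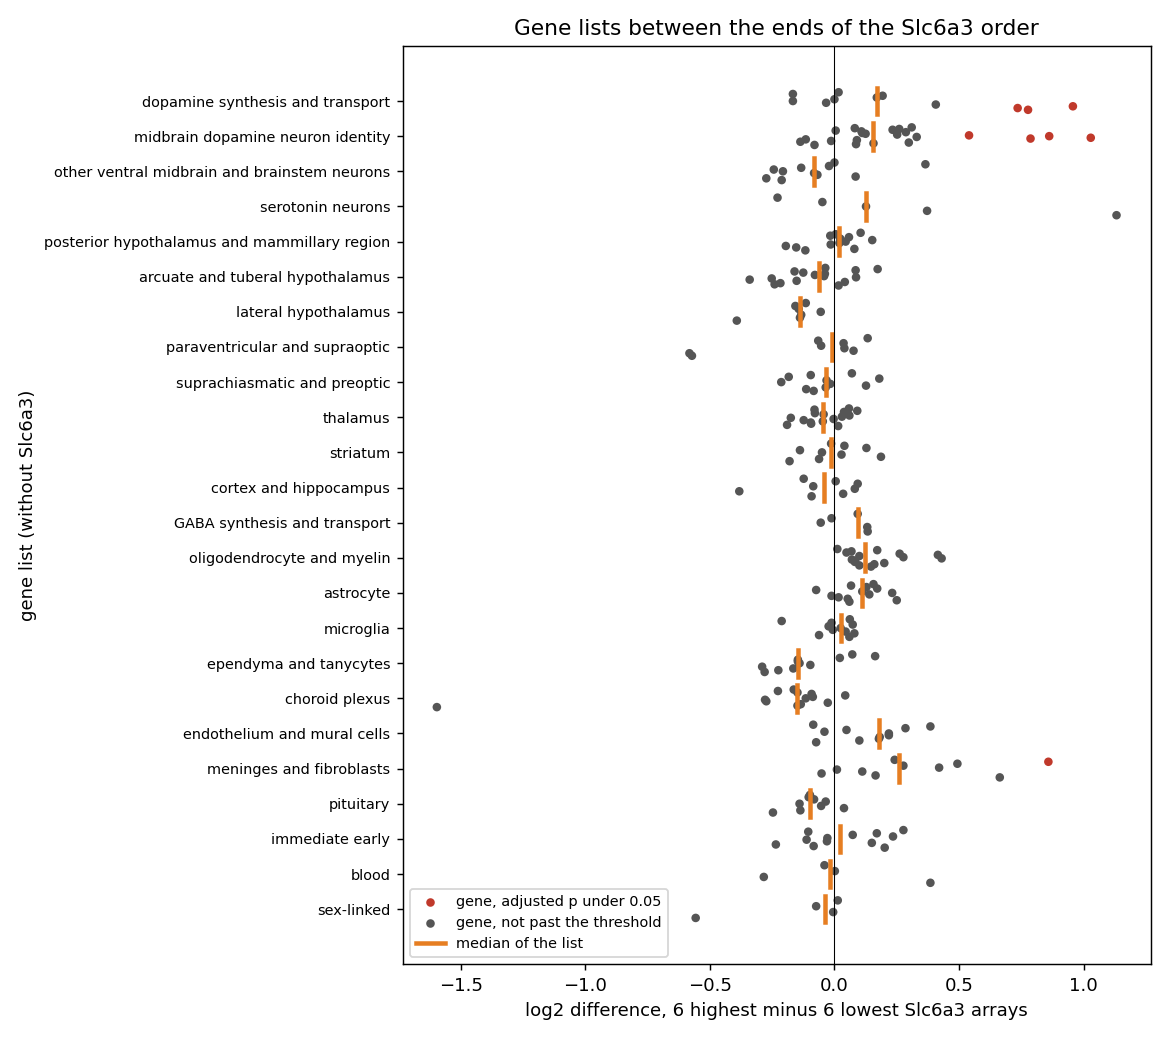
Log2 difference between the 6 highest and the 6 lowest Slc6a3 arrays (x axis) of each measured gene (points) in 24 lists (y axis), red where the limma adjusted p is under 0.05, with the median of each list as an orange bar. The red genes are 3 of dopamine synthesis and transport, 4 of midbrain dopamine neuron identity and Ogn among the meningeal markers.

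No gene was called lower at the high end. The smallest adjusted p among them was 0.0779 for Rfpl4b, which differed by -0.49. Of the 10 lower genes with the smallest p, 3 stayed under 5.81 on every array, namely Glyatl3 at -0.48, the olfactory receptor Olfr1136 at -0.37 and Ccdc172 at -0.32. The others were Rfpl4b, the taste receptor Tas2r118 at -0.42, Oxt, Foxj1, the phospholipase Plaat5 at -0.27, the kinesin Kif12 at -0.25 and Enho, the precursor of adropin, at -0.30. For Enho the ends were separate, from 8.72 to 9.09 at the high end and from 9.13 to 9.33 at the low end. Without the dimmest 40% of genes, limma called 33 genes, of which 30 were higher, Ermn, Rgs5, Dcn and Drd2 among them, and 3, Oxt, Enho and Foxj1, were lower.

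The arrays also differed in the spread of all probesets. The standard deviation over all probesets of an array was 1.99 to 2.02 at the high end, 2.0 to 2.04 between and 1.93 to 2.0 at the low end, while array medians lay between 7.10 and 7.19. The 3 smallest were wt/WT 2, ko/KO 2 and wt/WT 1, all at the low end. Without these 3 arrays 6 of the 12 calls remained, and Aldh1a1, Anxa1, Ogn, Ret, Tacr3 and Ttc6 were lost, with Aldh1a1 at 0.59 (adjusted p = 0.0857) and Ret at 0.47 (adjusted p = 0.0711). After quantile normalization, which gives all arrays the same spread, 16 genes were called and all 12 were among them. Without the array low in Xist and that high in Ttr (ko/WT 4 and wt/WT 3), 11 genes were called, and Ogn, Ret and Ttc6 were not among them.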

How the data were processed

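Total RNA of dissected, frozen mouse hypothalamus was measured on 18 arrays. The deposited table holds log2 values, 1 per probeset and array, a scale read here from the values (1.11 to 14.54). RMA and MAS5 are named, without role or version, per the submitters' processing notes. RMA, where used, makes arrays alike in distribution and compresses small differences of dim genes. Scanner files and scan dates were not analysed here, so detection and scan batches could not be examined.

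Of 34760 probesets, 21640 had 1 gene symbol in the platform annotation, 1321 several and 11799 none. Entrez identifiers matched the RefSeq table of GRCm38.p6 for 21553, which changed 0 symbols. The brightest single-gene probeset stood for each of 19937 genes.

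Arrays were ranked by Slc6a3, with ties broken by column order, and the 6 highest were compared with the 6 lowest by limma 3.58.1 in R 4.3.3 (lmFit and eBayes, no covariates). Slc6a3 was left out, which left 19936 genes, with a Benjamini-Hochberg threshold of 0.05. A difference is the mean of the high end minus that of the low end on the log2 scale. The code was tested on simulated data. The number of arrays limits the precision. The arrays, gene lists and tests were chosen with earlier results of these data known. Named are all members of both dopamine lists, the 10 largest called differences in each direction (or, failing 10, those of smallest p), and up to 2 genes of smallest p in each other list, passing over predicted genes. Alternatives were other normalization, filters, probeset summaries, numbers of arrays, covariates, a robust fit with a trend, a slope over all 18 arrays, and leaving out arrays.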

Additional observations from a re-analysis of the deposited data

Results flagged for a closer look

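In each group of 6 arrays, a value far from the other 5 was looked for (a gap to the nearest value that is a larger share of the range of the group than Dixon's critical value). This was met in 12 of 188 groups, and chance gives about 1 in 20. At the high end, Foxa2 was 7.73 on wt/KO 4 (others 7.19 to 7.39), Gucy2c 6.39 on ko/KO 1 (6.56 to 6.65), Rarres2 7.01 on wt/WT 4 (7.20 to 7.26), Alas2 9.08 on wt/KO 2 (6.78 to 7.49) and Xist 5.93 on ko/WT 4 (10.45 to 10.79). At the low end, Ret was 8.56 on ko/KO 2 (others 8.88 to 9.05), Sox6 7.79 on ko/KO 2 (7.94 to 8.0) and S100a8 5.95 on ko/KO 2 (5.52 to 5.59). Pts was 7.19 on wt/WT 1 (7.44 to 7.55) and Gal 6.99 on wt/WT 1 (7.51 to 7.67). Ntsr1 was 7.38 on wt/WT 3 (7.63 to 7.65) and Tph2 6.24 on wt/WT 2 (5.75 to 5.85). The Ret call holds without ko/KO 2, the array that lies apart.

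Whether the difference between the ends itself differed between the genotype labels was tested by an interaction term in limma. It was called for 0 genes by the title ending (smallest adjusted p = 0.533), with 1566 genes under 0.05 before adjustment, and for 0 by the genotype field (smallest adjusted p = 0.869), with 466 before adjustment. Each end held only 2 to 4 arrays of either label, and the labels contradict each other on many arrays. The lack of calls therefore does not show that the difference is the same across genotypes.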

How the results depend on the processing

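Each result had up to 25 alternatives, and the cause of a change was not tested. The count of genes higher at the high end was 12, and became 30 without the dimmest 40% of genes, 0 with 9 arrays against 9, 50 with a trend and robust variance, 30 with a slope over 18 arrays, 6 without the 3 arrays of smallest spread and 9 to 21 when 1 array was left out. The count of lower genes was 0, and became 3 without the dimmest genes, 3 with a trend and robust variance, 9 with the slope and 0 to 10 when 1 array was left out. The fits with the other tied array and without the 3 arrays of smallest spread were chosen after seeing the data. Of the 12 called genes, the filter for dim genes left 8 to test and removed Anxa1, Chrna5, Ogn and Ttc6. Chrna6, Slc18a2, Ddc, Th and Slc10a4 lost their call only with 9 arrays against 9 (adjusted p = 0.286 for Ddc), and Ogn kept its call in 7 of 24 alternatives. Directions turned only for small or single-array differences. Foxa1 was 0.0049 after quantile normalization, 0.008 with 5 arrays an end, 0.018 with 9, 0.017 with the tied array, 0.013 with the slope and -0.085 to 0.029 leaving 1 array out. Calb1 was -0.054 after quantile normalization, -0.056 with 9 arrays an end, -0.025 with the genotype field as covariate, -0.022 with the tied array and -0.027 to 0.052 leaving 1 out. Kdm5d was 0.0063 after quantile normalization and 0.0025 with the field. Dbh was -0.012 with 5 arrays an end, -0.018 with the slope and -0.032 to 0.068 leaving 1 out. With 9 arrays an end Pitx3 was 0.0011 and Nr4a2 -0.0056. Nr4a2 was -0.092 without the 3 arrays of smallest spread and -0.014 to 0.165 leaving 1 out. Xist was 0.22 without the array low in it and that high in Ttr, and -0.75 to 0.22 leaving 1 out. Wfs1 was -0.16 to 0.011 leaving 1 out. No paired analysis was possible because the labels give no replicate numbers shared between groups. Dim genes, for which signal over background is unknown here, limit what could be seen.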

Other observations

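Some genes outside the lists, named after their values were seen, differed between the ends with an adjusted p above the threshold. Sv2c, a synaptic vesicle protein found in dopamine neurons, ran from 8.82 to 8.99 at the high end and from 8.30 to 8.61 at the low end, a difference of 0.36 (SE 0.066, limma adjusted p = 0.0745), with no overlap. Ranbp3l, a Ran-binding protein, ran from 6.47 to 7.42 at the high end and from 5.97 to 6.43 at the low end, a difference of 0.69 (SE 0.122, adjusted p = 0.0519), also with no overlap, though its slope on Slc6a3 over all 18 arrays was not called (adjusted p = 0.0845). Aldh1a7, a close paralog of Aldh1a1 whose probes may share signal with it, differed by 0.50 (SE 0.098, adjusted p = 0.0943), with overlapping ends.

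With a slope on Slc6a3 over all 18 arrays, 39 of all 19936 genes were called, 30 higher and 9 lower with more Slc6a3. Among them were 9 of the 34 dopamine genes, all higher. The slope uses the Slc6a3 values that chose the ends, and the arrays of the ends are in it, so these calls are not a separate test. The slope was scaled to the distance between the means of the ends. Among the dopamine genes were Drd2 at 0.31 (limma adjusted p = 0.00562) and Gch1 at 0.39 (adjusted p = 0.0282). Sv2c and Aldh1a7, which are outside the lists, were also called. Ogn was not called in that fit (adjusted p = 0.0676).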
